A study of Mus musculus with 8 samples.

Results

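Bone morphogenetic protein (BMP) signalling was described here through 10 genes in sorted intestinal stem cells: the receptors *Bmpr1a* and *Bmpr2*, the signal-carrying Smads *Smad1*, *Smad5* and *Smad4*, the inhibitory Smads *Smad6* and *Smad7*, and the target genes *Id1*, *Id2* and *Id3*. They were chosen by symbol for their place in the pathway and not by a measured value, though earlier results of these data were known. They are 10 of the 53801 genes in the count table. All 10 were among the 16445 genes that passed the filter on low counts and were tested. Lgr5-GFP+ cells of mouse intestinal crypts were sorted with antibodies to the epithelial protein EpCAM, the blood cell protein CD45 and CD24. Messenger RNA was sequenced from small pools of these sorted cells from 8 mice. Of these, 4 mice were labelled β-catGOF; Mll1-/- (knockout) and 4 were labelled β-catGOF; Mll1+/- (control). Every mouse carried Lgr5-EGFP-IRES-CreERT2, in which tamoxifen activates Cre recombinase in cells that express the stem cell gene *Lgr5*, together with a β-catenin gain-of-function allele (β-catGOF) that Cre turns on and an Mll1flox allele that Cre deletes. Tamoxifen was injected at 50 mg/kg on 3 consecutive days into mice of 4 to 6 weeks, and cells were taken 10 days after induction. The control mice thus carried the β-catenin mutation and are labelled as heterozygous for Mll1, and no library with unmutated β-catenin was analysed here. This Cre line is known to be active in only some of the crypts.

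BMP ligands bind a pair of receptors on the cell surface, and the type II receptor (*Bmpr2*) then phosphorylates the type I receptor (*Bmpr1a*). The active type I receptor phosphorylates Smad1, Smad5 and Smad9, which join Smad4, enter the nucleus and switch on target genes, among them *Id1*, *Id2* and *Id3*. Smad6 and Smad7 are themselves induced by the pathway and act as a brake on the receptors. Id proteins lack a DNA-binding domain and hold E proteins such as Tcf3, Tcf4 and Tcf12 away from DNA. In the intestine, BMP signals are known to be strongest outside the crypt base, where they restrain stem cells, and to be kept low at the base by secreted antagonists from the surrounding stroma.

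None of the 10 genes differed between the genotypes at an adjusted p under 0.1 (edgeR's quasi-likelihood test, two-sided, Benjamini-Hochberg over all genes tested), beside 0.0851% of all genes tested (0.0486% higher and 0.0365% lower). DESeq2's Wald test called 1 of the 10 (*Smad7*), beside 2.47% of all genes, and limma-voom called 0, beside 0.626%. At an unadjusted p under 0.05, 2 of the 10 were found, *Smad7* and *Smad5*, both higher in the libraries labelled Mll1-/-, beside 9.15% of all genes (5.4% higher and 3.75% lower). In 3 of the 10 there was no overlap between the libraries of the genotypes, beside 6.28% of all genes. Here *Smad5* and *Smad7* were higher in the libraries labelled Mll1-/-, beside 3.34% of all genes in that direction, and *Bmpr2* was lower, beside 2.94%. The median log2 fold change of the 10 genes was −0.01, with 5 positive and 5 negative values, beside 0.01 over all genes. Fold changes are given throughout as libraries labelled Mll1-/- over libraries labelled Mll1+/-.

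Each library held between 14468751 and 16847793 counts on genes, of which mitochondrial genes took 17.1 to 30.1%. Expression is given as CPM, a gene's counts relative to the TMM-scaled total of its library, and a floor of 3 counts corresponded to 0.162 to 0.241 CPM. Because the Smart-seq2 protocol amplifies cDNA without molecular identifiers, reads are not independent molecules and such floors cover counting error only. Library numbers in the table's header fall into 2 runs, mice J_7075, J_7079, J_7096 and J_7100 (run 1) and mice J_7134, J_7135, J_7136 and J_7139 (run 2), each with 2 libraries of each genotype. Library J_7135 stood apart from the others, its best Spearman correlation with another library being 0.883. *Kmt2a*, which encodes Mll1, was at 53.5 to 78.5 CPM in the libraries labelled Mll1-/- and at 48.9 to 64.9 CPM in those labelled Mll1+/-, so it was not lower in the former. Counting took in the whole gene and does not single out the deleted exons, so these counts check the deletion itself neither way, and genotypes are given as labelled. The labels do not give the sex, and transcripts of Xist and of Y-linked genes differed in level between the genotypes. In such bulk libraries, fewer cells of a type and less RNA per cell cannot be told apart.

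Promoters of these genes were read from RefSeq (GRCm38.p6) to show stretches before start sites. *Smad5* is shown as a Smad gene whose libraries did not overlap between the genotypes, and *Smad1* as its close relative whose libraries did. A receptor (*Bmpr1a*) and a target gene (*Id2*) were picked because their windows hold a match to the letters GGCGCC. Capitals mark GGCGCC, a GC-rich element bound by BMP-responsive Smads, and CANNTG, the E-box bound by E proteins. Only bases outside annotated exons are shown, each written 5′ to 3′ on the strand of its gene. The *Smad5* and *Smad1* stretches end right at the start of the annotated gene, and those of *Bmpr1a* and *Id2* lie within the annotated span of their genes, between exons.
Smad5 promoter, chr13:56702760-56703009, plus strand, 250 to 1 bases before the start: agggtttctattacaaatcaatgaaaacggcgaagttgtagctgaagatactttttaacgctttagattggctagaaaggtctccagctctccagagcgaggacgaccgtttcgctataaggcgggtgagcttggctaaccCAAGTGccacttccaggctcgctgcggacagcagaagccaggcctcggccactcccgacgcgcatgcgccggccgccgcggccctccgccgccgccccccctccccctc
Smad1 promoter, chr8:79399519-79399678, minus strand, 250 to 91 bases before the start: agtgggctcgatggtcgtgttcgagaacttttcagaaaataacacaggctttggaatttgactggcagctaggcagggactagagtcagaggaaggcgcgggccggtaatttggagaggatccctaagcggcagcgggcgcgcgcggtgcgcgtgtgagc
Bmpr1a promoter, chr14:34502688-34502796, minus strand, 250 to 142 bases before the start: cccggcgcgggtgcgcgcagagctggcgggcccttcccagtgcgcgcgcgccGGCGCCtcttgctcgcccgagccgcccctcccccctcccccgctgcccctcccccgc
Id2 promoter, chr12:25096254-25096342, minus strand, 250 to 162 bases before the start: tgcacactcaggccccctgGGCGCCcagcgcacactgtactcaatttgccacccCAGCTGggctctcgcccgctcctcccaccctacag
In the full windows of 250 bases, searched on both strands, GGCGCC was found before at least 1 start of 4 of the 7 genes examined (*Bmpr1a*, *Bmpr2*, *Smad5* and *Id2*) and in 9.59% of all 32851 such windows. The E-box CANNTG was found for 2 of the 7 genes (*Smad5* and *Id2*) and in 66.2% of all windows. The counts for the 7 genes take any window of a gene, *Smad5* having 3, and the percentages take single windows. The 2 measures are therefore not directly comparable. Windows of the 7 genes held 60.0 to 78.8% G and C, and all other windows were not matched for this. The *Smad5* match to GGCGCC lies before another of its starts and not in the stretch printed above. The windows of *Smad1*, *Smad6* and *Id3* held neither motif. A match describes these letters and is not a binding site.

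Both receptors had lower means in the libraries labelled Mll1-/-, and neither passed the test. *Bmpr1a*, the type I receptor for BMP2 and BMP4 (ENSMUSG00000021796, GRCm38 chromosome 14, 34410734 to 34503341), was at 76.2 CPM in J_7075, 76.2 in J_7096, 36.3 in J_7135 and 49.7 in J_7136 among the libraries labelled Mll1-/-. It was at 132 CPM in J_7079, 116 in J_7100, 71.2 in J_7134 and 62.9 in J_7139 among those labelled Mll1+/-. Levels were higher in run 1 than in run 2 in both genotypes, and the genotypes overlapped because the run 1 libraries labelled Mll1-/- lay above the run 2 libraries labelled Mll1+/-. The means were 59.6 ± 19.9 and 95.7 ± 33.9 CPM (SD, n = 4 each), and the log2 fold change was −0.68 (SE, the standard error, 0.31, 95% interval −1.38 to 0.01, adjusted p = 0.556, edgeR). The difference was −0.70 within run 1 and −0.64 within run 2 on the log2 scale, and within each run both libraries labelled Mll1-/- lay below both others. With the run as a block in the edgeR fit the adjusted p of *Bmpr1a* was 0.177. An antisense gene, Gm17110, overlaps 4.57% of the exonic bases of *Bmpr1a*, and since counting did not use the strand, reads there cannot be assigned to either gene.

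*Bmpr2*, the type II receptor that starts the phosphorylation relay (ENSMUSG00000067336, chromosome 1, 59763400 to 59879014), was at 48.3 CPM in J_7075, 52.9 in J_7096, 4.87 in J_7135 and 28.2 in J_7136 among the libraries labelled Mll1-/-. Those labelled Mll1+/- held 67.7 CPM in J_7079, 63.4 in J_7100, 56.2 in J_7134 and 62.8 in J_7139. The libraries labelled Mll1+/- lay close together and all above the others, and J_7135 was by far the lowest library, with 90 counts where the others reached up to 1132. Means of 33.6 ± 21.9 and 62.5 ± 4.75 CPM (SD, n = 4 each) yielded a log2 fold change of −0.90 (SE 0.55, 95% interval −2.12 to 0.33, adjusted p = 0.659, edgeR). Without J_7135 the log2 fold change was −0.53, and the difference on the log2 scale was −0.37 within run 1 and −2.21 within run 2. *Bmpr2* is a long gene product of 17983 exonic bases, so its level in J_7135 was set beside that of other long genes. On the log2 scale it was −2.86 relative to the other libraries labelled Mll1-/-, while the median of the 1165 genes over 10 kb was −0.13, and 11 of these genes (0.944%) were as low, beside 0.657% of all genes.

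**Figure D1:**
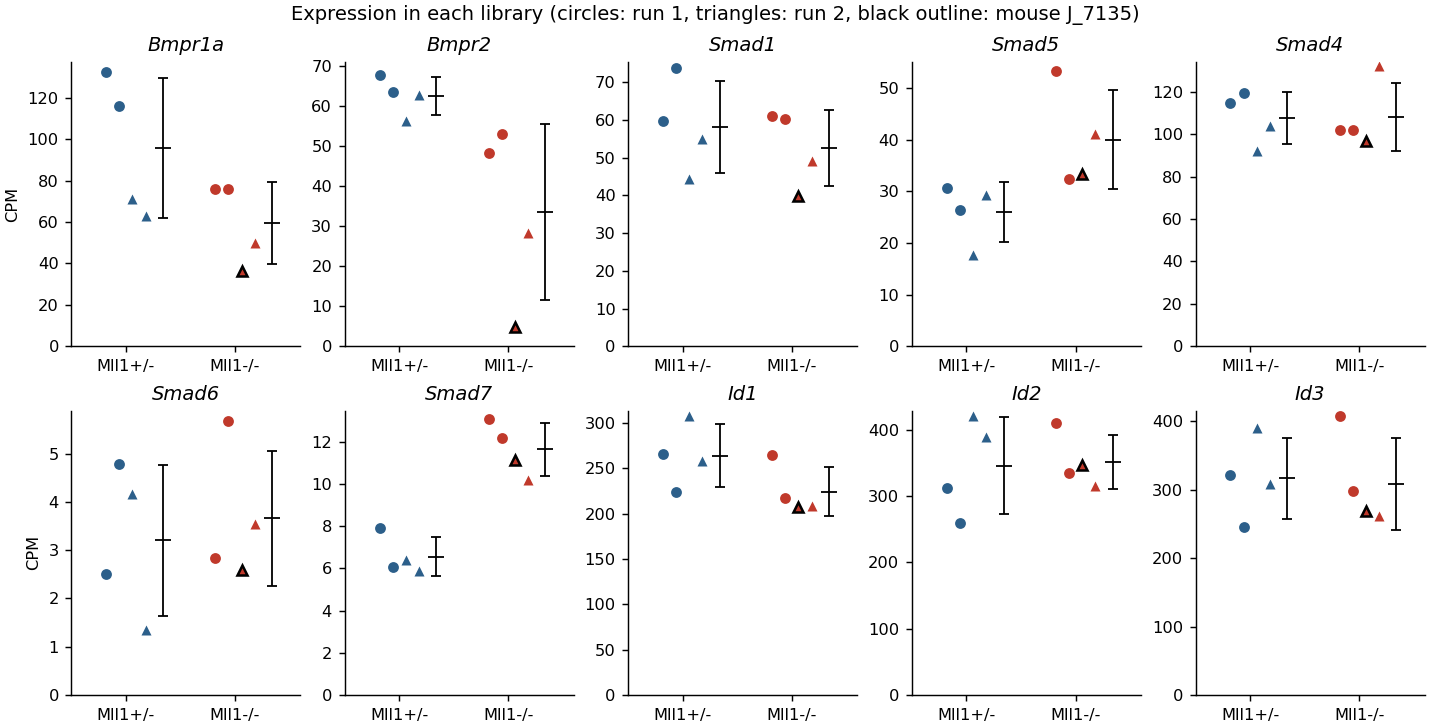
Expression of the 10 BMP pathway genes in each library, with CPM on the vertical axis from 0 and the labelled genotype on the horizontal axis; circles are run 1, triangles run 2, the black outline is mouse J_7135 and the bars are mean ± SD of 4 libraries. Libraries do not overlap for *Bmpr2* (4.87 to 52.9 against 56.2 to 67.7 CPM), *Smad5* (32.3 to 53.2 against 17.7 to 30.6 CPM) and *Smad7* (10.2 to 13.1 against 5.88 to 7.90 CPM).

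Among the Smads phosphorylated by the BMP receptors, *Smad5* was higher in the libraries labelled Mll1-/- without passing the adjusted threshold, and *Smad1* overlapped between the genotypes. *Smad5* (ENSMUSG00000021540, chromosome 13, 56703010 to 56742377) was at 53.2 CPM in J_7075, 32.3 in J_7096, 33.4 in J_7135 and 41.1 in J_7136 among the libraries labelled Mll1-/-. The values of the others were 30.6 CPM in J_7079, 26.3 in J_7100, 17.7 in J_7134 and 29.3 in J_7139. Each library labelled Mll1-/- was above each library labelled Mll1+/-, but J_7096 and J_7079 differed by less than the spread within a genotype. The means were 40.0 ± 9.63 and 26.0 ± 5.79 CPM (SD, n = 4 each), with a log2 fold change of 0.62 (SE 0.24, 95% interval 0.09 to 1.15, unadjusted p = 0.0258, adjusted p = 0.486, edgeR). The difference was 0.53 within run 1 and 0.68 within run 2 on the log2 scale.

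*Smad1* (ENSMUSG00000031681, chromosome 8, 79338395 to 79399518) carries the same signal as *Smad5*. It was at 61.0 CPM in J_7075, 60.2 in J_7096, 39.7 in J_7135 and 49.2 in J_7136 among the libraries labelled Mll1-/-, and at 59.8 in J_7079, 73.6 in J_7100, 44.4 in J_7134 and 54.8 in J_7139 among those labelled Mll1+/-. The genotypes overlapped almost completely, and run 2 held the lowest library of each. The log2 fold change was −0.15 (SE 0.20, 95% interval −0.60 to 0.31, adjusted p = 0.871, edgeR), so that a fall to 0.659-fold or a rise to 1.24-fold lay within its interval.

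Because *Smad1*, *Smad5* and *Smad9* take the same place in the pathway, their shares of the summed level per length were computed in each library. *Smad5* made up 40.9% in J_7075, 29.1% in J_7096, 37.7% in J_7135 and 40.5% in J_7136, and 27.7% in J_7079, 23.0% in J_7100, 23.5% in J_7134 and 30.4% in J_7139. *Smad1* made up 53.1 to 64.4% in the libraries labelled Mll1-/- and 64.1 to 76.1% in those labelled Mll1+/-, and *Smad9* made up 0.933 to 9.12% in all 8. *Smad1* was thus the most abundant of the 3 in every library, and the genotypes overlapped in both shares through J_7096. These shares rest on the same counts as the fold changes above and were not tested.

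*Smad4*, the partner shared by BMP and TGF-β signals (ENSMUSG00000024515, chromosome 18), had the most even level of the 10 genes, with a coefficient of variation of 12.3% over the 8 libraries. It was at 102 CPM in J_7075, 102 in J_7096, 96.8 in J_7135 and 132 in J_7136 among the libraries labelled Mll1-/-, and at 115 in J_7079, 120 in J_7100, 92 in J_7134 and 104 in J_7139 among those labelled Mll1+/-. The highest and the lowest library belonged to different genotypes of run 2, and the groups overlapped throughout. The log2 fold change was 0.01 (SE 0.14, 95% interval −0.31 to 0.33, adjusted p = 0.991, edgeR), and its sign was negative within run 1 (−0.20) and positive within run 2 (0.21).

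The inhibitory Smads were the least abundant genes of the set per length, and *Smad7* had the smallest unadjusted p of the 10. *Smad7* (ENSMUSG00000025880, chromosome 18), which blocks receptors of both the BMP and the TGF-β branch, was at 13.1 CPM in J_7075, 12.2 in J_7096, 11.1 in J_7135 and 10.2 in J_7136 among the libraries labelled Mll1-/-. It was at 7.90 CPM in J_7079, 6.05 in J_7100, 6.42 in J_7134 and 5.88 in J_7139 among the others. All libraries labelled Mll1-/- lay above all libraries labelled Mll1+/-, and the gap between the groups (7.90 to 10.2 CPM) was wider than the SD within either. Means of 11.7 ± 1.26 and 6.56 ± 0.921 CPM (SD, n = 4 each) yielded a log2 fold change of 0.83 (SE 0.23, 95% interval 0.32 to 1.33, unadjusted p = 0.00476, adjusted p = 0.328, edgeR). The difference was 0.78 within run 1, 0.71 within run 2 and 0.85 in the fit without J_7135. The call depended on the tool, since DESeq2's Wald test gave an adjusted p of 0.0356 for *Smad7* with 406 genes (2.47%) called in all. On simulated data a larger share of the calls of DESeq2 than of edgeR or limma-voom was false. Those data were drawn with the spread that edgeR had estimated, and DESeq2 was run there on more genes than the others. They therefore cannot decide between the tools for *Smad7*. The counts behind *Smad7* were 80 to 222 per library.

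*Smad6* (ENSMUSG00000036867, chromosome 9, 63953076 to 64022059), which acts mainly on the BMP branch, was at 2.83 CPM in J_7075, 5.68 in J_7096, 2.60 in J_7135 and 3.55 in J_7136 among the libraries labelled Mll1-/-, and at 2.51 in J_7079, 4.78 in J_7100, 4.17 in J_7134 and 1.36 in J_7139 among those labelled Mll1+/-. Values were scattered over the same range in both genotypes and rested on 21 to 98 counts per library. Its log2 fold change was 0.19 (SE 0.47, 95% interval −0.86 to 1.25, adjusted p = 0.935, edgeR), an interval that includes the fold change of *Smad7*. A difference of that size in *Smad6* was therefore not detectable at this spread. Per length, *Smad7* was higher than *Smad6* in 7 of the 8 libraries, with a ratio of 0.897 to 3.28.

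The 3 Id genes were the most abundant of the set, and none had an unadjusted p under 0.05. *Id1*, an inhibitor of E proteins and a common readout of BMP signals (ENSMUSG00000042745, chromosome 2, 152736251 to 152737410), was at 265 CPM in J_7075, 217 in J_7096, 207 in J_7135 and 208 in J_7136 among the libraries labelled Mll1-/-, and at 266 in J_7079, 224 in J_7100, 308 in J_7134 and 258 in J_7139 among those labelled Mll1+/-. Only J_7075 of the libraries labelled Mll1-/- reached into the range of the others, which began at J_7100. The means were 224 ± 27.4 and 264 ± 34.5 CPM (SD, n = 4 each), and the log2 fold change was −0.23 (SE 0.13, 95% interval −0.53 to 0.06, adjusted p = 0.636, edgeR). It was −0.03 within run 1 and −0.44 within run 2 on the log2 scale.

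*Id2* (ENSMUSG00000020644, chromosome 12, 25093799 to 25097140), which shares the helix-loop-helix region of *Id1*, was at 410 CPM in J_7075, 335 in J_7096, 347 in J_7135 and 315 in J_7136 among the libraries labelled Mll1-/-, and at 312 in J_7079, 260 in J_7100, 421 in J_7134 and 389 in J_7139 among those labelled Mll1+/-. *Id3* (ENSMUSG00000007872, chromosome 4, 136143497 to 136145755) was at 407 CPM in J_7075, 297 in J_7096, 269 in J_7135 and 261 in J_7136, and at 322 in J_7079, 246 in J_7100, 390 in J_7134 and 308 in J_7139. For both genes the libraries labelled Mll1-/- had the higher mean in run 1 and the lower mean in run 2, and the genotypes overlapped. The difference of *Id2* was 0.38 within run 1 and −0.29 within run 2, and that of *Id3* was 0.31 and −0.39, each on the log2 scale. Over both runs the log2 fold change was 0.03 for *Id2* (SE 0.16, 95% interval −0.34 to 0.39, adjusted p = 0.978, edgeR). For *Id3* it was −0.04 (SE 0.18, 95% interval −0.44 to 0.37, adjusted p = 0.971, edgeR). These intervals leave out a change of *Id1*, *Id2* or *Id3* by a log2 fold of 1 in either direction.

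**Figure D2:**
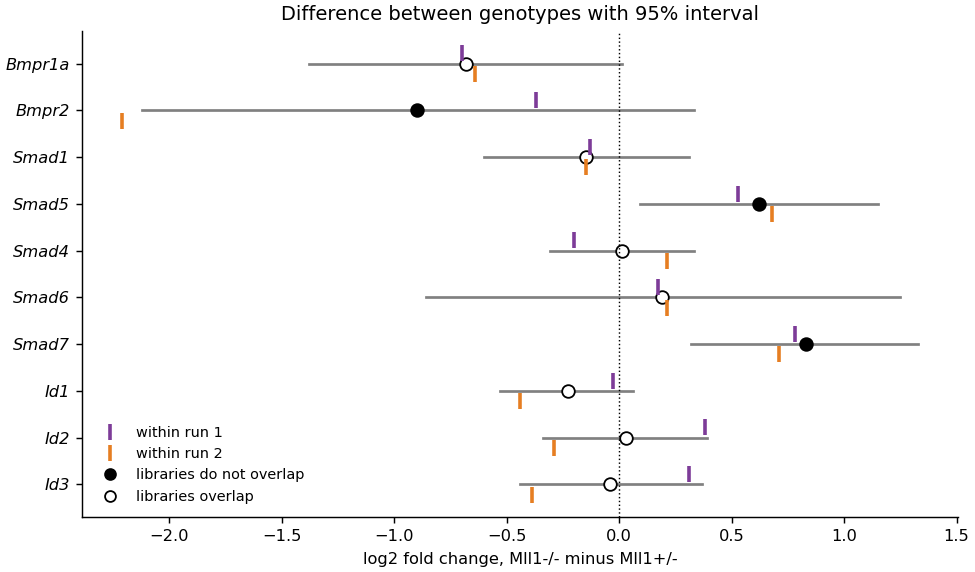
Log2 fold change of each gene (libraries labelled Mll1-/- minus Mll1+/-) on the horizontal axis, as circles with 95% intervals from edgeR, filled where the libraries of the genotypes do not overlap; short vertical ticks are the differences within run 1 and within run 2. The intervals of *Smad5* (0.09 to 1.15) and *Smad7* (0.32 to 1.33) lie above 0, and the ticks lie on opposite sides of 0 for *Smad4*, *Id2* and *Id3*.

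Summed over *Id1*, *Id2* and *Id3*, the libraries labelled Mll1-/- held 784 to 1082 CPM and those labelled Mll1+/- held 730 to 1119 CPM, which overlapped almost fully. Per length, *Id1* made up 36.5 to 39.3% of the 4 Id genes in the libraries labelled Mll1-/- and 40.1 to 44.2% in those labelled Mll1+/-. *Id4* made up at most 0.408% in any library. The shares of *Id1* did not overlap between the genotypes, which was seen after the values were known and was not tested.

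To compare genes with each other, CPM was divided by exonic length, which gives CPM per kilobase. Over the 8 libraries the mean level per length was 210.4 ± 30.9 for *Id1*, 174 ± 33.0 for *Id3* and 143 ± 22.6 for *Id2* (SD, n = 8), which put them at ranks 352, 409 and 494 of the 16445 genes tested. *Smad4* followed at 29.0 ± 3.56, *Bmpr1a* at 12.2 ± 5.06, *Smad1* at 8.84 ± 1.72 and *Smad5* at 4.45 ± 1.42. *Bmpr2* was at 2.67 ± 1.19, *Smad7* at 2.01 ± 0.643 and *Smad6* at 1.07 ± 0.435, at ranks between 9690 and 12983. The target genes thus stood above the signal-carrying Smads and these above the inhibitory Smads, with the receptors on either side of *Smad1* and *Smad5*. Of the 9 neighbours in this order, 7 differed within libraries at an adjusted p under 0.05 (exact two-sided sign-flip permutation test over all sign patterns, adjusted over the 9 pairs). *Smad5* and *Bmpr2* (adjusted p = 0.0791, exact permutation test, *Smad5* higher in 7 of 8 libraries) did not differ beyond their spread, and neither did *Bmpr2* and *Smad7* (adjusted p = 0.781, exact permutation test). Per length, *Id1* was above *Id3*, and *Id3* above *Id2*, in all 8 libraries, by 1.213-fold and 1.216-fold (adjusted p = 0.0141 each, exact permutation test, whose smallest unadjusted p is 0.00781). By mean CPM their order was the reverse, with *Id2* at rank 259, *Id3* at 307 and *Id1* at 448. The order of the Id genes thus rests on the exonic lengths used, which the test does not cover.

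**Figure D3:**
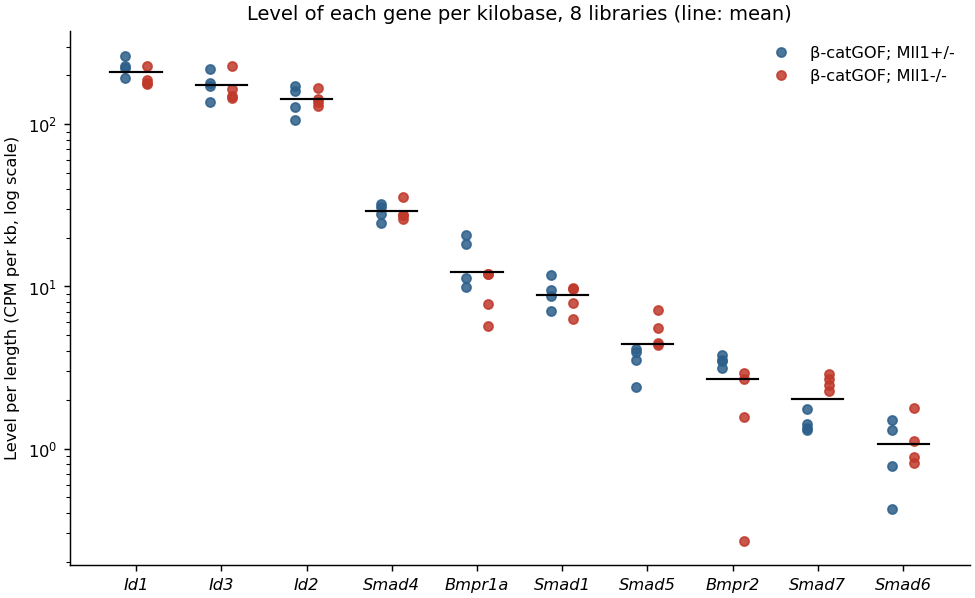
Level of each gene in CPM per kilobase of exon on a log axis, in the order of the mean over 8 libraries (line); blue points are the libraries labelled Mll1+/- and red points those labelled Mll1-/-. The Id genes lie between 107 and 265, *Smad4* between 24.8 and 35.5, and the single low point of *Bmpr2* at 0.271 is J_7135.

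Whether target genes and inhibitory Smads moved together over the libraries was examined in 10 pairs of *Id1*, *Id2*, *Id3*, *Smad6* and *Smad7*, as log2(CPM + 1). *Id1* and *Id3* gave Pearson's r = 0.838 (exact permutation p = 0.0101, adjusted p = 0.0603, n = 8) and Spearman's rho = 0.762 (exact permutation p = 0.0368, adjusted p = 0.288). *Id2* and *Id3* gave r = 0.821 (exact permutation p = 0.0120, adjusted p = 0.0603) and rho = 0.714 (exact permutation p = 0.0576, adjusted p = 0.288). *Id1* and *Id2* gave r = 0.611 (exact permutation p = 0.108, adjusted p = 0.359) and rho = 0.357 (exact permutation p = 0.389, adjusted p = 0.752). The Id genes thus tended to be high in the same libraries, but no pair passed an adjusted p of 0.05. *Id2* and *Id3* were highest in J_7134 and J_7075. *Id1* was highest in J_7134, followed by J_7079 (266 CPM) and J_7075 (265 CPM). Without the 2 libraries farthest from the median of the first gene, r was 0.759, 0.667 and 0.544 (n = 6). After each value was centred on the mean of its genotype, r was 0.991 for *Id1* and *Id3* (adjusted p = 7.44e-04, permutation test), 0.837 for *Id2* and *Id3* and 0.846 for *Id1* and *Id2* (adjusted p = 0.0326 each, permutation test). These p-values are not exact, since the test pairs the 8 values freely while centring ties the values within a genotype. The 7 pairs with *Smad6* or *Smad7* lay between −0.427 and 0.206, with adjusted p of at least 0.729 (exact permutation test). A run holds 4 libraries, too few for a correlation within it.

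Of the other 16444 genes tested, those whose log2(CPM + 1) followed *Id1* most closely over the 8 libraries were *Ifi30* (r = 0.966), *Mustn1* and *Gm13537* (r = 0.962 each). For *Id2* they were *Gm38299* (r = 0.963), *Mpzl1* (r = 0.960) and *Cct8* (r = 0.937), and for *Id3* they were *Wdr45b* (r = 0.980), *Gm14270* (r = 0.939) and *Tdpx-ps1* (r = 0.933). An r above 0.9 was reached by 26 genes for *Id1*, 8 for *Id2* and 7 for *Id3*. These are the highest of many correlations over 8 shared libraries and are given as a description.

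Around the 10 genes, 64 further genes of the pathway were listed by role, of which 39 passed the filter on low counts. None of the 39 was called at an adjusted p under 0.1 (edgeR), 7 had an unadjusted p under 0.05 (5 higher and 2 lower in the libraries labelled Mll1-/-), and 5 did not overlap between the genotypes (4 higher and 1 lower), which is 12.8% beside 6.28% of all genes. DESeq2's Wald test called 3 of them (*Fstl1*, *Id4* and *Tcf4*), where it called 2.47% of all genes, and limma-voom called 1 (*Tcf4*), where it called 0.626%. Their median log2 fold change was 0.02. Most of the 25 genes that did not pass the filter were ligands and antagonists: 7 of the 10 ligands and 10 of the 13 antagonists were among them.

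Of the 10 ligands, *Bmp2*, *Bmp3* and *Bmp7* passed the filter. *Bmp4*, which was not tested, was at 0 to 2.24 CPM in the libraries labelled Mll1-/- and at 0 to 0.773 CPM in those labelled Mll1+/-. *Bmp2* (1.51 ± 1.39 and 2.08 ± 1.97 CPM, SD, n = 4 each) and *Bmp3* (15.1 ± 3.39 and 12.6 ± 7.59 CPM, SD, n = 4 each) overlapped. *Bmp7*, a ligand that binds several type I receptors, had the highest level per length of the ligands, with 25.4 CPM in J_7075, 25.4 in J_7096, 30.2 in J_7135 and 19.2 in J_7136 among the libraries labelled Mll1-/-, and 15.0 in J_7079, 18.4 in J_7100, 19.1 in J_7134 and 9.56 in J_7139 among those labelled Mll1+/-. The groups were next to each other without overlap, J_7136 being above J_7134 by less than the spread within a genotype. Its log2 fold change was 0.69 (SE 0.26, adjusted p = 0.483, edgeR).

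Of the 12 other receptors and co-receptors, 7 were tested. *Rgmb*, a co-receptor that binds BMPs at the membrane, was the most abundant of them per length (70.2 CPM per kilobase), at 139 to 192 CPM in the libraries labelled Mll1-/- and 186 to 220 CPM in those labelled Mll1+/-, with a log2 fold change of −0.28 (SE 0.13, adjusted p = 0.557, edgeR). *Acvr2b*, a type II receptor for activins that also binds BMPs, was at 8.67, 11.5, 11.6 and 13.4 CPM in J_7075, J_7096, J_7135 and J_7136 and at 8.38, 8.44, 7.38 and 7.49 CPM in J_7079, J_7100, J_7134 and J_7139. These groups did not overlap, though J_7075 was barely above J_7100, and the log2 fold change was 0.51 (SE 0.23, adjusted p = 0.543, edgeR). Of the 7 genes, 1 was higher (*Acvr2b*) and 1 lower (*Tgfbr1*) at an unadjusted p under 0.05 (edgeR). The log2 fold change of *Tgfbr1* was −0.71 (SE 0.23, unadjusted p = 0.0122, adjusted p = 0.427, edgeR), and its libraries overlapped. *Bmpr1b*, the closest relative of *Bmpr1a*, reached at most 1 count in any library.

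Among the antagonists, the defining stromal ones were nearly undetected, *Grem1* reaching at most 1 count and *Nog* at most 14 counts in a library. *Twsg1*, which binds BMPs outside the cell, was the most abundant antagonist per length (14.1 CPM per kilobase), at 43.9 to 80.8 and 50.1 to 64.4 CPM, with a log2 fold change of 0.02 (SE 0.21, adjusted p = 0.986, edgeR). *Fstl1*, a secreted glycoprotein that binds BMP4, was at 44.6 CPM in J_7075, 30.4 in J_7096, 30.1 in J_7135 and 19.5 in J_7136 among the libraries labelled Mll1-/-, and at 50.6 in J_7079, 50.8 in J_7100, 54.1 in J_7134 and 62.9 in J_7139 among those labelled Mll1+/-. Every library labelled Mll1-/- lay below every other, most clearly in run 2. The log2 fold change was −0.81 (SE 0.24, adjusted p = 0.369, edgeR). *Fstl1* shares 8.45% of its 31-base words with other genes, mostly *Gm11261*, so part of its reads could have been left out as not unique.

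None of the 3 other Smads and none of the 17 intracellular regulators tested had an unadjusted p under 0.05 (edgeR) or libraries without overlap. *Smad2*, the most abundant of *Smad2*, *Smad3* and *Smad9* per length, carries TGF-β and activin signals and was at 24.3 to 42.3 and 23.6 to 44.4 CPM, with a log2 fold change of −0.03 (SE 0.27, adjusted p = 0.983, edgeR). *Fkbp1a*, whose protein FKBP12 keeps type I receptors inactive, was the most abundant of them per length (48.8 CPM per kilobase), with a log2 fold change of 0.00 (SE 0.18, adjusted p = 0.998, edgeR).

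The largest fold changes of the 39 genes were those of *Id4* and *Tcf4*, a further target and a partner of Id proteins, and neither passed the test. *Id4*, the remaining Id gene (ENSMUSG00000021379, chromosome 13, 48261228 to 48266026), was at 3.19 CPM in J_7075, 3.71 in J_7096, 2.33 in J_7135 and 7.16 in J_7136 among the libraries labelled Mll1-/-, and at 0.299 in J_7079, 1.06 in J_7100, 0.481 in J_7134 and 1.55 in J_7139 among those labelled Mll1+/-. The groups did not overlap, and every library held more than the floor of 3 counts, between 5 and 109 counts. The log2 fold change was 2.26 (SE 0.61, 95% interval 0.88 to 3.64, adjusted p = 0.321, edgeR), and with DESeq2's Wald test the adjusted p was 0.0328. Antisense genes overlap 4.44% of the exonic bases of *Id4*, and unstranded counts cannot separate them. *Msx1*, the most abundant of the other targets per length, was at 10.7 to 19.5 and 3.03 to 17.0 CPM (log2 fold change 0.74, SE 0.46, adjusted p = 0.669, edgeR).

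*Tcf4*, an E protein bound by Id proteins (ENSMUSG00000053477, chromosome 18), was at 97.6 CPM in J_7075, 62.4 in J_7096, 39.8 in J_7135 and 61.3 in J_7136 among the libraries labelled Mll1-/-, and at 33.8 in J_7079, 35.5 in J_7100, 21.8 in J_7134 and 35.4 in J_7139 among those labelled Mll1+/-. The groups did not overlap, and J_7135 came nearest to the other genotype. The log2 fold change was 1.05 (SE 0.28, 95% interval 0.42 to 1.67, adjusted p = 0.299, edgeR), with differences of 1.15 within run 1 and 0.81 within run 2, and its adjusted p was 0.0170 with DESeq2's Wald test and 0.0995 with limma-voom. *Tcf3*, the most abundant E protein per length (11.5 CPM per kilobase), overlapped between the genotypes at 39.1 to 65.9 and 33.3 to 42.6 CPM, with a log2 fold change of 0.46 (SE 0.19, unadjusted p = 0.0329, adjusted p = 0.506, edgeR). *Tcf12* was close to *Tcf3* per length (10.8 CPM per kilobase) and above it in CPM, at 91.4 to 222 and 166 to 193 CPM. Its log2 fold change was −0.28 (SE 0.24, adjusted p = 0.768, edgeR).

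**Figure D4:**
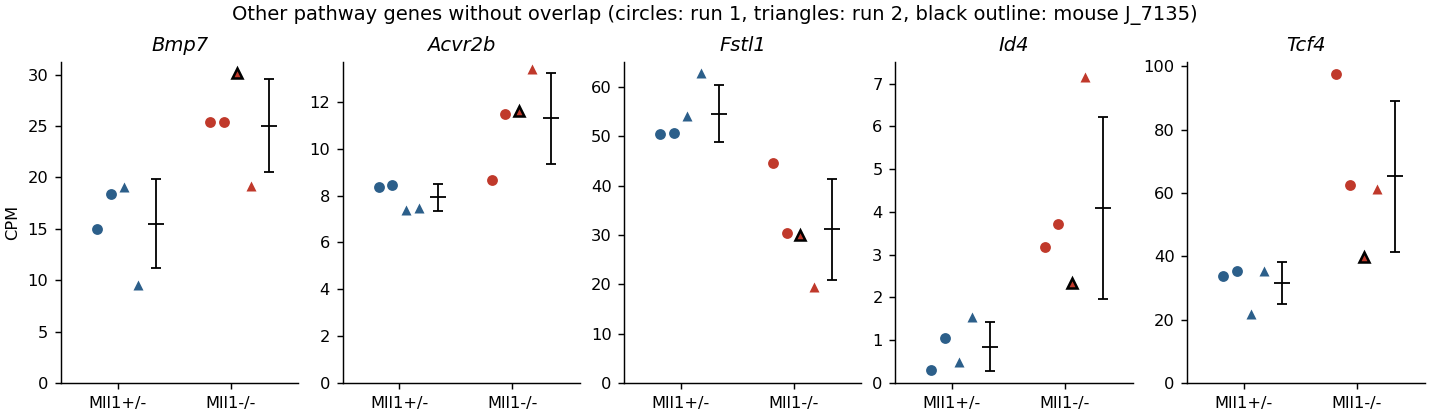
Expression in CPM (vertical axis, from 0) of the 5 further pathway genes whose libraries do not overlap between the labelled genotypes (horizontal axis); circles are run 1, triangles run 2, the black outline is mouse J_7135 and the bars are mean ± SD of 4 libraries. *Bmp7*, *Acvr2b*, *Id4* and *Tcf4* are higher and *Fstl1* is lower in the libraries labelled Mll1-/-.

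Markers of other cells were read in the same libraries, since BMP genes are also expressed by stroma and by differentiated epithelium. Markers of mesenchyme summed to 0.919 to 3.35 CPM in the libraries labelled Mll1-/- and to 1.27 to 2.07 CPM in those labelled Mll1+/-, and 6 of the 8 genes were under 1 CPM in every library. Endothelial markers summed to 4.402 to 6.70 and 4.36 to 6.02 CPM, with 5 of 6 genes under 1 CPM in every library. Immune markers summed to 2.27 to 6.37 and 6.33 to 10.4 CPM, with 5 of 6 genes under 1 CPM in every library and *Ptprc*, which encodes CD45, among these. None of the genes of the 3 lists was at 0 in every library. These sums lay far below those of the 5 epithelial markers (3177 to 3750 and 2508 to 2746 CPM) and of the 6 stem cell markers, *Lgr5* and *Olfm4* among them. Of the 6 stem cell markers, 2 were lower without overlap, *Olfm4* (log2 fold change −0.77, adjusted p = 0.200, edgeR) and *Slc12a2* (−0.87, adjusted p = 0.151, edgeR), and these set the sum of the list, which was 10060 to 16650 CPM in the libraries labelled Mll1-/- and 22260 to 26610 CPM in those labelled Mll1+/-. *Axin2* was higher without overlap (0.44, adjusted p = 0.384, edgeR), and *Lgr5* (−0.06), *Smoc2* (0.03) and *Ascl2* (−0.40) overlapped. Enterocyte markers summed to 115 to 159 and 211 to 305 CPM, and goblet cell markers to 468 to 979 and 294 to 486 CPM. The enterocyte sums did not overlap between the genotypes, and the goblet cell sums did. Of the goblet cell markers, *Muc2* (log2 fold change 1.94, adjusted p = 0.202, edgeR) and *Spdef* (2.41, adjusted p = 0.205, edgeR) were higher without overlap. *Tff3* (1.09), *Clca1* (1.56), *Fcgbp* (0.34) and *Agr2* (0.93) overlapped. Of the enterocyte markers, *Apoa1* (−1.16, adjusted p = 0.166, edgeR) and *Fabp2* (−0.93, adjusted p = 0.172, edgeR) were lower without overlap, and the others overlapped. Whether these cell types had a part in the differences of *Smad5*, *Smad7*, *Bmpr2*, *Bmp7*, *Acvr2b*, *Id4*, *Tcf4* and *Fstl1* was not tested.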

How the data were processed

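Lgr5-GFP+ cells were sorted and sequenced after Smart-seq2 amplification of polyadenylated RNA. The authors demultiplexed reads with bcl2fastq 2.19.1, aligned them to mm10 with GSNAP and deposited raw counts of uniquely mapped reads per gene of Ensembl release 92 (featureCounts 1.6.3, strand not used), so reads shared by overlapping genes are missing. The authors also deposited a signal table for 25485 genes, counts divided by 1 size factor per library (DESeq2 1.22.2), used here for symbols and as an alternative scaling. Other deposited columns hold gene lengths. The 92 spike-in rows were left out.

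Counts were filtered with filterByExpr (10 counts, 15 in total), scaled with TMM and tested with the robust quasi-likelihood test of edgeR 4.0.16 in R 4.3.3, with genotype as the only term. Benjamini-Hochberg adjustment ran over 16445 genes, with calls at 0.1. The study's methods accepted this rate for DESeq2 and not for edgeR. DESeq2's Wald test called *Smad7*, *Fstl1*, *Id4* and *Tcf4* here. The common biological coefficient of variation was 0.435. Standard errors follow from the fold change and its F statistic. Exact tests used scipy 1.17.1. DESeq2 1.42.0, limma 3.58.1 (voom), other scalings and filters, a run block, a covariate of Xist over Y-linked transcripts and each library left out served as alternatives. The tests were checked on simulated data, where DESeq2 had the largest share of false calls. The simulation used edgeR's estimates of spread and ran DESeq2 on more genes than the other tools, so it does not rank them on the real libraries. Depth was 14468751 to 16847793 counts per library. The genes were named by rule: the 10 genes, *Kmt2a* and the 3 genes most like each Id gene. Of the 64 further genes, the rule named those called, those without overlap and the most abundant per length of each role. *Bmp2*, *Bmp3*, *Bmp4*, *Bmpr1b*, *Tgfbr1*, *Grem1*, *Nog*, *Tcf12* and the single cell type markers were added after their values were seen. The members and lists were chosen with earlier results of these data known. Promoter letters are from RefSeq.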

Additional observations from a re-analysis of the deposited data

Results flagged for a closer look

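In groups of 4 libraries, 30 combinations of gene and labelled genotype were examined for a library far from the other 3, and 2 were found, where chance gives about 1 in 20. *Smad4* was at 132 CPM in J_7136, while the other libraries labelled Mll1-/- lay between 96.8 and 101.8 CPM, so the gap took up 0.857 of the range, above Dixon's critical value at 95%. *Tcf4* was at 21.8 CPM in J_7134, while the other libraries labelled Mll1+/- lay between 33.8 and 35.5 CPM, a gap of 0.871 of the range. The low *Bmpr2* level of J_7135 (4.87 CPM) did not pass that value.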

How the results depend on the processing

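Of 170 fold changes of the 10 genes under 17 alternatives, 155 kept their direction and their side of the threshold. *Smad7* was called under DESeq2's Wald test (log2 fold change 0.83, adjusted p = 0.0356), making 1 of 10 genes called, and 3 of the further pathway genes were called there and 1 with limma-voom. Signs turned only for genes near 0: *Smad4* was at −0.04 and *Id3* at 0.10 with limma-voom, and *Id2* was at −0.08 with the Xist covariate. With 1 library left out, the fold changes ranged from −0.10 to 0.06 for *Smad4*, −0.10 to 0.45 for *Smad6*, −0.09 to 0.13 for *Id2* and −0.21 to 0.08 for *Id3*. *Bmpr2* ranged from −1.21 to −0.53, its weakest value without J_7135. Under every scaling 3 of the 10 genes were without overlap, and without J_7075 there were 4, *Id1* being added, while the share of all genes without overlap went from 6.28% to 10.1%.

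The number of genes called among all tested was 8 with upper-quartile scaling, 47 without a filter, 34 with at least 10 counts in every library, 406 with DESeq2's Wald test and 103 with limma-voom. It was 0 with the run block and 0 with the Xist covariate (1642 and 1616 at an unadjusted p under 0.05, edgeR), and 0 to 45 with 1 library left out, 45 without J_7135 and 2 without J_7075. The cause was not tested. Of the further pathway genes, 4 to 10 did not overlap with 1 library left out, beside 8.91 to 10.8% of all genes. Centred on genotype means, 3 of the 10 correlations passed an adjusted p of 0.05 (permutation test, not exact after centring) and that of *Id1* and *Smad7* was 0.511. With 1 library left out, correlations ranged from −0.265 to 0.411 for *Id2* and *Smad7*, −0.292 to 0.397 for *Id3* and *Smad7*, −0.338 to 0.047 for *Id3* and *Smad6*, and −0.224 to 0.453 for *Smad6* and *Smad7*. Of the 9 neighbours by level, 5 to 7 differed. No paired analysis was possible because mouse numbers are unique to each library and the groups share none. Depth limited *Smad6* (21 to 98 counts per library) and *Id4* (5 to 109) most among the genes described in full.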
